A study of Mus musculus with 4 samples.

Results

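Replication timing of mouse embryonic fibroblasts carrying an inducible Suv4-20h mutation was compared between an induced and a non-induced array. These are 2 of the 4 arrays of the study, lay on the same slide (the other 2 were on another slide), and are the only arrays labelled as the inducible mutant. The comparison was made over chromosomes 1 to 19, in non-overlapping windows of 200 kb that held at least 5 probes, which gave 11314 windows (2262.8 Mb) with a median of 15 probes each. The other arrays were a control and a knockout (KO), whose floxed SUV4-20H1 allele had been deleted, per the labels. All 4 arrays are labelled with the same fibroblast line, although the line's number differs between fields of the labels. Of 122 probes on the Y chromosome, 106 were well above background in both channels of the KO array. The control, non-induced and induced arrays had 50, 53 and 41 such probes. Whether all arrays came from the same cells was not tested. The protocol text, which is shared by all arrays, describes 4-hydroxytamoxifen treatment (1 mM, 24 hours) to remove that allele, but it gives neither the means nor the duration of induction, and it does not name the allele that the inducible mutant carries. Each group holds 1 array, so no spread between cultures was measured, no test between the conditions was possible, and all standard errors (SE) below are over probes within a pair of arrays.

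Cells copy their genome in large blocks, or domains, that are replicated at characteristic times of S phase. Early domains are typically rich in genes and open chromatin, and late domains are typically poor in genes and associated with heterochromatin and the nuclear lamina. Suv4-20h enzymes add methyl groups to lysine 20 of histone H4: Suv4-20h1 mainly makes the dimethylated form, to which the origin recognition complex can bind through its ORC1 subunit, and Suv4-20h2 mainly makes the trimethylated form, a mark of pericentric heterochromatin. In the assay, cells took up the nucleotide analogue BrdU (50 µM, 1 hour), 80000 cells were separated by DNA content into fractions of early and late S phase, and the newly made DNA of each, after whole genome amplification, was put on one array in different dyes. Timing is log2 of early over late signal, centred on the median autosomal probe of each array, and higher values stand for earlier replication.

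The windows kept their order upon induction while the range of timing became wider. The distance between the 10th and the 90th percentile of windows was 2.08 on the non-induced array and 2.70 on the induced array, a ratio of 1.30. Percentiles 10, 25 and 75 lay at -1.14, -0.83 and 0.67 in non-induced cells, and at -1.60, -1.24 and 0.81 in induced cells. The values therefore lay farther out at both ends on the induced array. Both distributions had a late and an early peak, at -0.975 and 0.805 in non-induced cells and at -1.31 and 0.995 in induced cells, so that the distance between the peaks was 1.78 and 2.305.

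**Figure D1:**
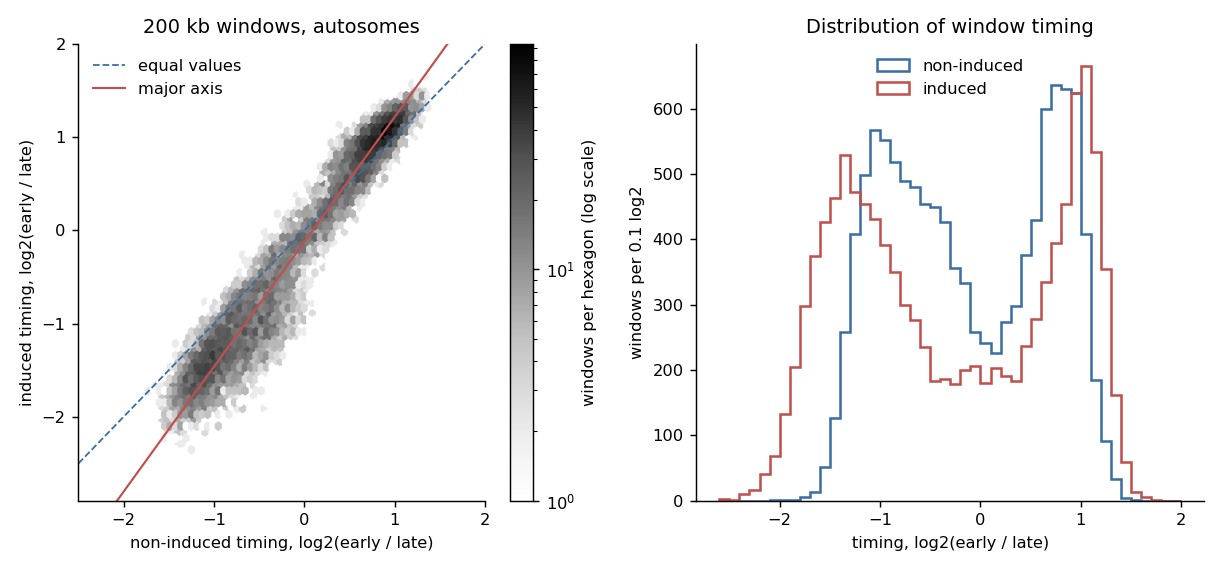
Left, timing of 11314 autosomal windows of 200 kb on the non-induced (x axis) and induced (y axis) array, both as log2 of early over late signal, with grey shade for the number of windows on a log scale, a dashed line of equal values and a solid line for the major axis (slope 1.34). Right, number of windows per 0.1 log2 on each array: the late peak lies at -0.975 in non-induced and at -1.31 in induced cells, and the early peak at 0.805 and 0.995.

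Across the 11314 windows, which are neighbours on chromosomes and not independent replicates, induced timing followed non-induced timing with Pearson's r = 0.96 and Spearman's rho = 0.95. The major axis through the windows had a slope of 1.34. Taken chromosome by chromosome, this slope was above 1 on all 19 autosomes, from 1.28 on chromosome 13 to 1.39 on chromosome 4. Most windows stayed on their side of the array's centre: 6157 were below 0 and 4783 at or above 0 on both arrays, together 96.7%. In 279 windows timing was at or above 0 in non-induced and below 0 in induced cells, and in 95 windows the reverse held. The SD of the difference over windows was 0.36, against a median SE of a window of 0.11, and differences of adjacent windows correlated with r = 0.75. Between the KO and control arrays, which share no array with this comparison, the 10th to 90th percentile distance had a ratio of 1.28, but windows kept their order less closely, with r = 0.85; the 2 comparisons could not be tested against each other with 1 array per group.

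With arrays centred on the median probe, late-replicating windows made up nearly all of those that differed most. The call rule required a difference of at least 0.52 in either direction, which is 0.25 of the non-induced 10th to 90th percentile distance, that was also at least 3 times its SE. The induced array was later by this rule in 1292 windows (11.4%, 258.4 Mb) and earlier in 54 (0.477%, 10.8 Mb). Among those called later, 1259 had non-induced timing below 0, 31 crossed from 0 or above to below 0, and 2 stayed above it. Windows just past the size threshold did not stand apart from those just short of it. The 350 windows within 0.05 above it had a median non-induced timing of -0.85 and a median difference of -0.54. The 341 windows within 0.05 below it had medians of -0.87 and -0.49.

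These counts rest on how the arrays were scaled and centred. Scaling the induced array to the non-induced spread left 205 later (1.81%) and 8 earlier windows (0.0707%), and 202 of the 205 were among the 1292. Arrays were centred on probes, and late windows hold fewer probes than early ones, so the median window itself lay at -0.20 without and -0.40 with induction. Centring both arrays on their median window added 0.20 to every difference and turned the balance of calls: 370 windows (3.27%) were then later and 689 (6.09%) earlier. With scaling and this centring together, 81 (0.716%) were later and 30 (0.265%) earlier. Other choices also moved the share of windows called. Later windows made up 1.19% with quantile normalization, 1.14% with the linear trend on control and KO timing removed, 2.3% with normexp background correction and 7.21% with loess, and earlier windows 0.159%, 1.28%, 0.398% and 1.52%. Over probes well above background the shares were 7.05% and 0.23%, and with the deposited log ratio 11.4% and 0.486%. They were 6.8% and 0.899% in windows of 100 kb, 15.7% and 0.135% in windows of 400 kb, and 9.68% and 0.595% with 10 or more probes. A size threshold of 0.35 of the distance gave 4.99% and 0.0265%, no rule on the SE 17.6% and 0.53%, odd probes 6.89% and 1.01%, and even probes 6.5% and 0.703%. Later windows outnumbered earlier ones in all of these except with the trend removed or with window centring alone. The trend was fitted with an intercept, so removing it also re-centred the differences. Centring subtracts a constant from each array and cannot change its spread, so the choice of centre did not test the wider range. The ratio of spreads, 1.30 with either centring, was 1.18 with normexp and 1.24 over probes well above background. It was 1.28 with loess and 1.31 in windows of 400 kb. The side on which the range widened more was not fixed by these data.

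To follow the difference through the genome without using the compared arrays, windows were put in 5 equal groups (quintiles) by the mean timing of the control and KO arrays. In the latest quintile, mean timing was -0.97 without and -1.43 with induction, a difference of -0.45 ± 0.29 (SD over 2263 windows), and 95.4% of windows were lower on the induced array. Quintiles 2 and 3 had differences of -0.38 and -0.22. In quintile 4 the difference was 0.065, and in the earliest it was 0.18 ± 0.16 (SD over 2263 windows), from 0.85 to 1.03, with 11.8% of windows lower. After scaling to the same spread the 5 differences were -0.12, -0.13, -0.11, -0.062 and -0.063 from latest to earliest. With arrays centred on the median window they were -0.25, -0.18, -0.019, 0.27 and 0.38. Late called windows followed the same order, with 27.5% of the latest quintile called later, 20.4%, 8.27% and 0.928% of the next ones and 0.0442% of the earliest, against 11.4% of all windows.

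Both sorted fractions took part in the difference. Each channel is given as log2 signal relative to its own autosomal median, so channel values show redistribution along the genome and not total yield. In the latest quintile, early-fraction signal was -0.94 without and -1.15 with induction, while late-fraction signal was 0.095 and 0.29. Relative signal of these windows was thus lower in the early channel and higher in the late channel of the induced array. With each channel centred on its own median, the amounts were alike (-0.21 and 0.19). In the earliest quintile, early-fraction signal was nearly equal, at 0.57 and 0.59, and the difference lay in the late fraction, with -0.23 without and -0.43 with induction. The mean of both channels differed by -0.0086 in the latest and by -0.089 in the earliest quintile.

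**Figure D2:**
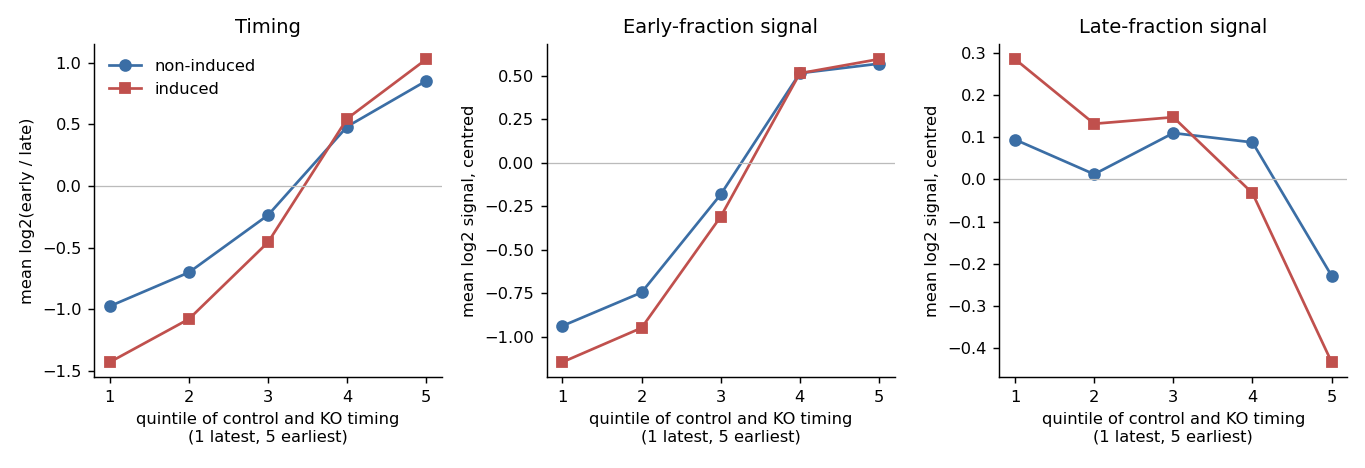
Mean timing (left, log2 of early over late), early-fraction signal (middle) and late-fraction signal (right, both log2 relative to the autosomal median of the channel) on the non-induced (circles) and induced (squares) arrays, by quintile of control and KO timing from 1, latest, to 5, earliest. Points are means over 2262 or 2263 windows; in the latest quintile the induced array is lower in the early fraction (-1.15 against -0.94) and higher in the late fraction (0.29 against 0.095).

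Signal strength differed along with timing. In the latest quintile, 91.2% of probes on the non-induced and 78.0% on the induced array were well above background in the early channel, whereas 98.4% and 99.0% were so in the late channel. In the earliest quintile the early channel had 99.4% and 98.7%. When only probes well above background in both channels of both arrays were kept, the latest quintile had a difference of -0.36 and the earliest 0.13, and the ratio of spreads was 1.24. In all 5 quintiles the measured difference was largest in size where the control and KO arrays, which are not in the comparison, were dimmest. Within quintile 2, the dimmest of 3 equal groups of windows had a difference of -0.54, the middle -0.35 and the brightest -0.24, at non-induced timing of -0.68, -0.72 and -0.71. Within quintile 4 the same groups had 0.19, 0.037 and -0.029, and within the earliest quintile 0.24, 0.17 and 0.11. After scaling to the same spread, the dimmest windows still differed most in quintiles 1 to 3, but the brightest did in quintiles 4 and 5. From dimmest to brightest, the scaled differences were 0.022, -0.089 and -0.12 in quintile 4, and -0.0065, -0.069 and -0.11 in quintile 5. Windows with 5 to 9 probes had -0.50 in the latest quintile and windows with 10 or more probes -0.41. In the earliest quintile the order of sizes was the other way, with 0.11 in windows of 5 to 9 probes and 0.18 in those of 10 or more. Just outside the limit on probe number, the 373 windows with 4 probes had a median difference of -0.41, against -0.43 in the 1014 windows with 5. The part of brightness in the timing difference was not tested.

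The mean position of domain borders differed by less than a window. Borders were set on the control array, where timing smoothed over 5 windows changed sign between stretches of at least 1 Mb, which gave 549 borders. On the late side, 500 to 700 kb inside the border, mean timing was -0.84 without and -1.16 with induction. On the early side at the same distance it was 0.57 and 0.58, so the step across the border was 1.41 and 1.74. The profile passed the middle of its own step at -75.5 kb (negative on the late side) without and at -82.2 kb with induction. The shift of -6.70 kb was far below the window size, and it was -3.85 kb with borders smoothed over 3 windows. After scaling to the same spread, the late side was at -0.84 and -0.89 and the early side at 0.57 and 0.45. With arrays centred on the median window, the difference was -0.11 on the late and 0.21 on the early side.

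**Figure D3:**
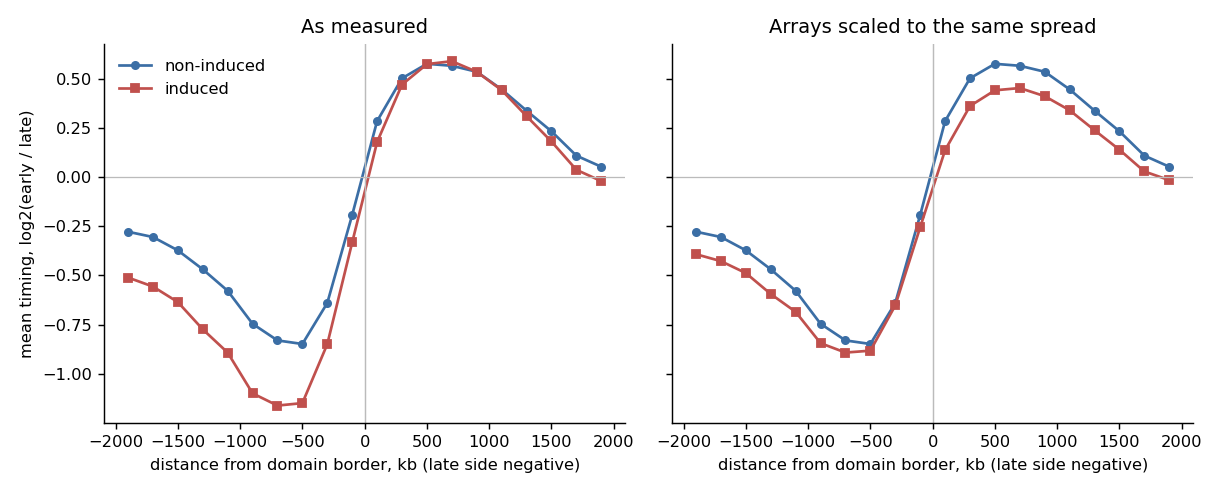
Mean timing (log2 of early over late) by distance in kb from 549 domain borders set on the control array, late side negative, for the non-induced (circles) and induced (squares) arrays, as measured (left) and after scaling the induced array to the same spread (right). As measured, the late side is lower on the induced array (-1.16 against -0.84) and both curves cross the border at nearly the same place.

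Long late domains differed more than short ones. Of 368 late domains on the control array, 348 had a lower mean on the induced array, with a median difference of -0.34 (10th to 90th percentile of domains -0.51 to -0.051). The 153 domains of 1 to 2 Mb had a median difference of -0.22, the 139 of over 2 to 5 Mb -0.37, and the 76 of over 5 Mb -0.39. All 76 of the longest class were lower. After scaling to the same spread 73 were lower (median -0.14), and with arrays centred on the median window 73 were lower (median -0.19). Of all windows, 62.1% were lower as measured and 67.6% after scaling (median -0.083), so part of such counts is common to the genome. Scaling and window centring together were not applied to domains, and with both the latest quintile had a mean difference of -0.015. Of the shortest class, 93 of 153 were lower after scaling (median -0.025). Short domains hold a larger share of windows next to a border, where differences were smaller, and domain length was not separated from that. Of 346 early domains, 245 were higher on the induced array, including 41 of the 44 over 5 Mb (median 0.17). After scaling 298 of the 346 were lower (median -0.094). With arrays centred on the median window instead, 53 of the 346 were lower (median 0.28).

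The longest late domain, of 23.8 Mb on chromosome 16 from 58600001 to 82400000, had mean timing of -0.71 (non-induced), -1.22 (induced), -0.54 (control) and -1.18 (KO) over 110 windows. Its difference of -0.51 was -0.23 after scaling, and 27 of its windows were called later and 0 earlier. Next came chromosome 4 from 12200001 to 31800000, with -0.82 without and -1.38 with induction and 38 windows later. A domain of 15.8 Mb on the same chromosome, from 64800001 to 80600000, had -0.59 and -1.14. The longest early domain, on chromosome 9 from 54400001 to 73000000, had 0.75 (non-induced), 0.93 (induced), 0.76 (control) and 0.63 (KO), and its difference of 0.18 was -0.032 after scaling. By contrast, an early domain of 10.4 Mb on chromosome 4 from 131200001 to 141600000 was above on either scale, at 0.62 and 0.91, with a difference of 0.28, or 0.072 after scaling. Long early domains of chromosomes 8 and 15 were also higher on both scales, at 0.26 and 0.22 as measured and 0.049 and 0.031 after scaling.

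Joining later windows across gaps of under 1 Mb gave 377 regions, of which 109 were single windows and 13 held 10 or more called windows. These 13 were chosen by the difference itself, so their values describe them and support nothing further. They were 3.0 to 9.8 Mb long and held 113 to 441 probes. Non-induced timing in them was -0.81 to -0.30 and induced timing -1.53 to -0.95, with differences of -0.84 to -0.52 (SE 0.032 to 0.073). In every one of the 13, early-fraction signal was lower on the induced array, by -0.69 to -0.22, and late-fraction signal was higher, by 0.088 to 0.33. The difference stayed below 0 in all 13 after scaling to the same spread (-0.57 to -0.22), with arrays centred on the median window (-0.63 to -0.32), with normexp background correction (-0.36 to -0.10), and over odd or even probes alone. Of their probes, 41.4 to 85.7% were well above background in both channels on both arrays, and over those probes alone the differences were -0.64 to -0.39.

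As measured, the lowest difference among the long regions was on chromosome 14 from 107200001 to 110800000. Timing there was -0.30 ± 0.049 (non-induced), -1.14 ± 0.079 (induced), -0.014 (control) and -1.56 (KO) (SE over 116 probes). The difference of -0.84 ± 0.073 was -0.57 after scaling, -0.45 over the 48 probes well above background and -0.14 with normexp, so this region was not the lowest of the 13 on the latter 2 measures. The control array was near 0 here, the KO array was the lowest of the 4, and the induced array lay between the KO and non-induced arrays. A region of chromosome 10 from 53800001 to 56800000 was late on all arrays, at -0.74 (non-induced), -1.53 (induced), -0.74 (control) and -1.34 (KO), with a difference of -0.79 ± 0.061 (SE over 113 probes). Over probes well above background this region had the lowest difference of the 13, -0.64. Of its 113 probes, 103 were lower on the induced array.

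The longest region, of 9.8 Mb, lay on chromosome 4 from 21600001 to 31400000, where 24 of 47 windows were called and 46 were lower on the induced array. Timing over all its 441 probes was -0.61 (non-induced), -1.24 (induced), -0.78 (control) and -1.15 (KO). The difference of -0.63 ± 0.032 (SE over probes) had the same rounded value over odd and over even probes. A second region of chromosome 4, from 71600001 to 77600000, had -0.69 (non-induced), -1.26 (induced), -0.53 (control) and -1.15 (KO). Chromosome 1 held a pair. From 13800001 to 18800000, timing was -0.65 (non-induced), -1.21 (induced), -0.42 (control) and -0.75 (KO), with 16 of 25 windows called. From 97200001 to 102200000, it was -0.62 (non-induced), -1.19 (induced), -0.30 (control) and -1.16 (KO). Odd and even probes had differences of -0.63 and -0.51 in the second region of chromosome 4. On chromosome 1 they had -0.57 and -0.53 from 13800001, and -0.69 and -0.45 from 97200001. As measured, the induced array was the lowest of the 4 in each of these regions, but after scaling to the same spread it lay above the KO array in all of them except the one starting at 13800001.

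**Figure D4:**
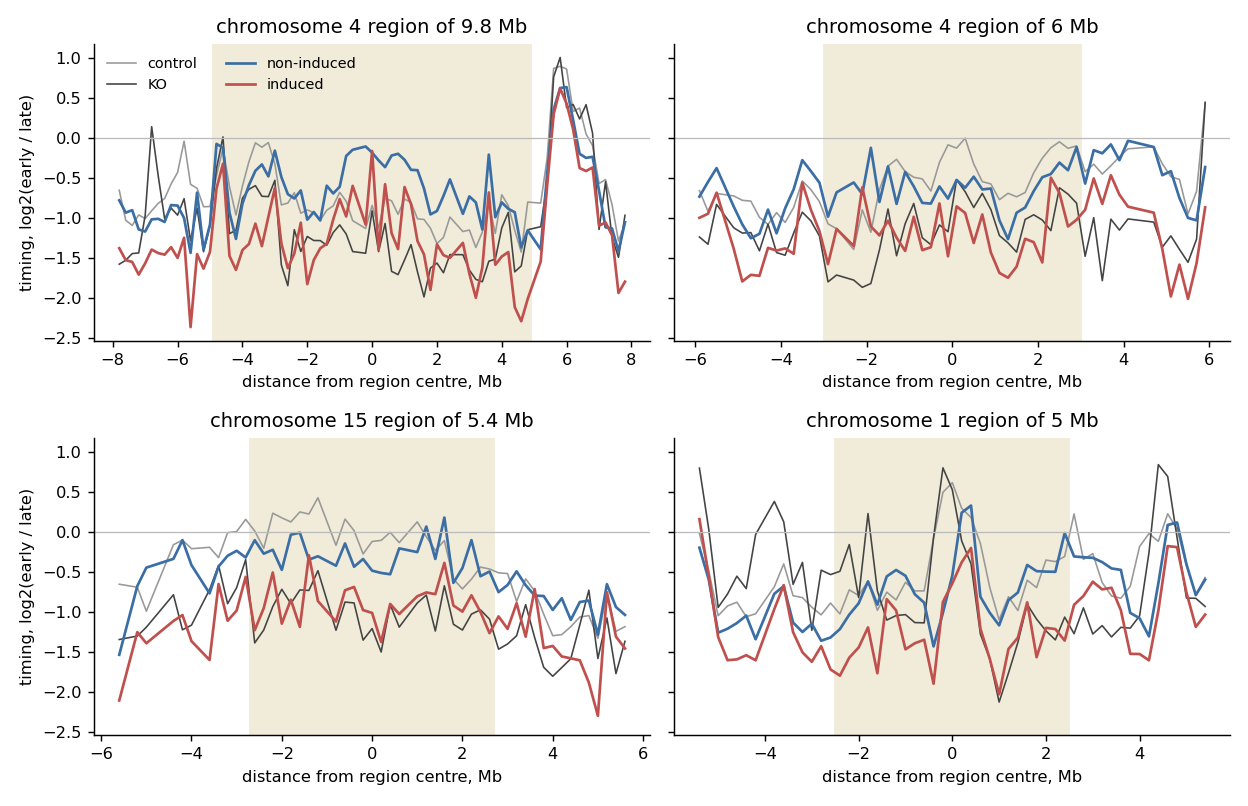
Timing (log2 of early over late, 200 kb windows) around the 4 longest later regions, with distance from the region's centre in Mb on the x axis, shading for the region, and lines for control, KO, non-induced and induced arrays. The region of chromosome 1 shown is the one starting at 13800001; within the shaded stretches the induced line runs below the non-induced line in 46 of 47 windows of the 9.8 Mb region and in 28 of 29, 24 of 25 and 24 of 25 windows of the others.

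Chromosome 2 held 3 of the long regions. The one from 40200001 to 43600000 was at -0.35 (non-induced), -1.03 (induced), 0.21 (control) and -0.99 (KO), and all of its 17 windows were lower on the induced array. From 85800001 to 89800000 timing was -0.48 (non-induced), -1.14 (induced), -0.034 (control) and -1.13 (KO), with 361 probes. Windows within 1 Mb of its ends had a mean of -0.11 without and -0.18 with induction, a difference of -0.067; since the ends were set by the calls, a smaller difference outside follows from the choice. The last, from 139600001 to 142800000, was late on all arrays, at -0.78 (non-induced), -1.39 (induced), -0.55 (control) and -1.08 (KO). In the other 12 long regions the flanks differed by -0.53 to -0.14.

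The remaining long regions lay on chromosomes 5, 9 and 15. Chromosome 5 from 84200001 to 88600000 had -0.74 (non-induced), -1.39 (induced), -0.60 (control) and -1.08 (KO). Chromosome 9 from 80400001 to 84400000 had -0.78 (non-induced), -1.31 (induced), -0.58 (control) and -0.63 (KO). This was the long region in which the KO and control arrays differed least, by -0.051. Chromosome 15 from 16000001 to 21400000 had -0.36 (non-induced), -0.95 (induced), -0.16 (control) and -1.04 (KO). On the same chromosome, from 40200001 to 44400000, timing was -0.81 (non-induced), -1.45 (induced), -0.26 (control) and -0.48 (KO), and 85.7% of its probes were well above background on both arrays. KO minus control was below 0 in all 13 regions, from -1.55 to -0.051, and its mean over all 1292 later windows was -0.57. Late windows in general were near this, with a mean KO minus control of -0.47 in the latest quintile and -0.45 in quintile 2.

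Fewer regions were called once the common widening was scaled out. After scaling to the same spread, the 205 later windows merged into 137 regions, 94 of them single windows, and the 10 with the most called windows are described here, again without a test. Their scaled differences were -0.76 to -0.43, but with normexp background correction, without scaling, their differences shrank from a range of -1.14 to -0.56 to one of -0.56 to -0.16, and with window centring added to the scaling 81 of the genome's windows were called in place of 205. Chromosome 2 from 85800001 to 89000000 and chromosome 4 from 25600001 to 29600000, both inside long regions above, had 7 called windows each and scaled differences of -0.43. Chromosome 5 from 84200001 to 85400000, inside the long region of that chromosome, had 4 called windows. Timing there was -0.11 (non-induced), -1.06 (induced), 0.050 (control) and -0.95 (KO). Its difference of -0.95 was -0.70 after scaling and -0.16 with normexp. The other 7 had 3 called windows each. Of these, chromosome 17 from 93800001 to 94400000 had the lowest scaled difference, -0.76, with all 18 of its probes lower on the induced array (-0.53 without and -1.67 with induction).

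A stretch inside the second long region of chromosome 15, from 43200001 to 43800000, was early in control cells, at 0.84, and stood at 0.28 in KO, -0.47 without and -1.54 with induction, with all 24 probes lower upon induction. Chromosome 16 from 53800001 to 54600000 had -0.58 without and -1.60 with induction. Chromosome 10 from 53800001 to 55000000, inside the long region of that chromosome, had -0.51 and -1.51. Chromosome 12 from 47600001 to 48400000 went from 0.18 in control and -0.11 in non-induced to -0.92 in induced and -1.33 in KO cells. A similar order was seen on chromosome 3 from 44000001 to 45200000, with -0.028 in control, -0.12 in non-induced, -0.93 in induced and -1.25 in KO cells. Chromosome 6 from 4000001 to 4600000 differed from the rest in being early: timing was 0.69 without and 0.12 with induction, 0.55 in control and -0.31 in KO cells. Its 42 probes were bright, with 41 well above background on both arrays. Its difference of -0.56 ± 0.064 (SE over probes) was -0.58 over the bright probes, -0.46 with normexp and -0.36 with arrays centred on the median window. After scaling it was -0.59, but scaling by construction lowers an induced value that is above 0. In the other 9 of these regions 42.4 to 75.0% of probes were well above background.

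Earlier windows were few and short. The 54 windows formed 47 regions, 41 of them single windows, and the longest was 1.2 Mb. Most were already early: 47 were at or above 0 in non-induced cells, with a median over the 54 of 0.38 without and 0.99 with induction. In these windows the late fraction carried most of the difference, with mean signal of -0.55 without and -1.04 with induction, against -0.27 and -0.12 in the early fraction. Before and after scaling, 5 windows were called earlier. Chromosome 2 from 27600001 to 27800000 was at -0.18 ± 0.16 (non-induced), 0.71 ± 0.18 (induced), 0.75 (control) and 0.51 (KO) (SE over 15 probes), so the non-induced array was the one that stood apart, and none of its probes was lower on the induced array. The non-induced array was also the lowest on chromosome 4 from 105400001 to 105600000, which rested on 6 probes, but there the KO array was the highest, with -0.25 (non-induced), 0.54 (induced), 0.79 (control) and 1.34 (KO).

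On chromosome 14 from 78400001 to 78600000, timing was -0.10 (non-induced), 0.58 (induced), -0.27 (control) and -0.11 (KO), a difference of 0.68 ± 0.10 (SE over 11 probes), so here the induced array stood above the other 3. Chromosome 1 from 155800001 to 156000000 had -0.72 (non-induced), -0.090 (induced), 0.12 (control) and 0.41 (KO). Chromosome 12 from 78800001 to 79000000 remained late, at -1.05 without and -0.50 with induction over 6 probes, with -0.91 in control and -0.95 in KO cells. Its difference of 0.55 was 0.25 with normexp. After scaling it was 0.66, but scaling by construction raises an induced value that is below 0. Late-fraction signal of this window was higher on the induced array, at -0.10 without and 0.093 with induction.

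All 19 autosomes had a lower mean on the induced array, from -0.26 on chromosome 3 to -0.022 on chromosome 19. Chromosome 3, the latest autosome, was at -0.26 without and -0.52 with induction, and 15.2% of its 743 windows were called later. Chromosome 11, the earliest, was at 0.18 and 0.15, with 5.36% of windows later. After scaling to the same spread, chromosomes 3 and 19 kept their places at the ends of the order, and the range shrank to -0.14 to -0.025. With arrays centred on the median window, chromosome 3 was at -0.056 and chromosome 19 at 0.18, so the sign of a chromosome's mean depends on the centre. The median total signal of both channels differed by -0.16 on chromosome 14 to 0.0062 on chromosome 10, a range of 0.17. The first 5 Mb of the chromosomes had a mean difference of -0.22 against -0.16 elsewhere, and the last 5 Mb had -0.080 against -0.17. The shares of windows later, 13.0% in the first and 11.1% in the last 5 Mb, were both near the 11.4% found elsewhere and over all windows. After scaling these ends were at -0.098 and -0.079, against -0.098 and -0.099 elsewhere.

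**Figure D5:**
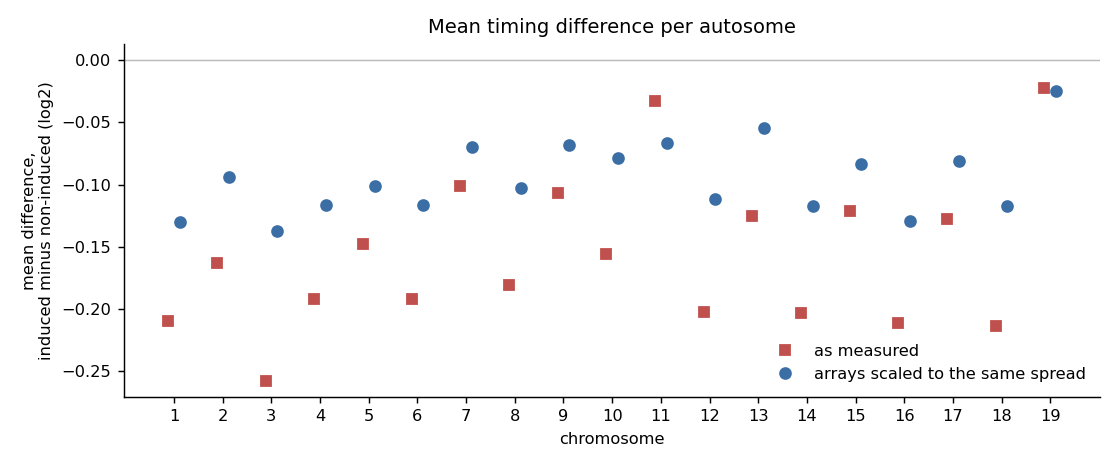
Mean difference in timing, induced minus non-induced (log2), for each autosome over its 200 kb windows, as measured (squares) and after scaling the induced array to the same spread (circles). Values run from -0.26 on chromosome 3 to -0.022 on chromosome 19 as measured, and from -0.14 to -0.025 after scaling.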

How the data were processed

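Agilent Feature Extraction 11.5.1.1 and probe positions on mouse build mm9 are named per the file headers, version 9.1 per the submitters' processing notes. Per the file headers, the deposited processed intensities had been background-subtracted, then detrended, then multiplied by a single linear dye factor in each channel. Per the labels, Cy3 marked the early and Cy5 the late fraction on all arrays, with no dye swap. The log10 ratios the authors deposited are of late to early signal and equal the scanner column; their sign was turned for use as an alternative. Their medians were -0.013 (non-induced) and -0.025 (induced).

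From the deposited intensities, log2 ratios of early to late were taken here. Spots that were controls or had an outlier flag on any array were dropped and repeated spots averaged. Subtracting the autosomal median of each array followed, over 160967 probes. No loess or quantile step was applied. Scaling to the same spread divided the induced array by 1.30. The median SD of log2 ratios over 1000 probes printed 5 times was 0.13 (non-induced) and 0.15 (induced). Median signal above local background was 209 and 149 in the early and 436 and 369 in the late channel. Named regions were the later regions with 10 or more called windows, the 10 with most called windows after scaling, and windows earlier before and after scaling. The members, windows and lists were chosen with earlier results of these data known. Calling was tested on simulated data, with shifts planted in windows of otherwise equal timing and with the same noise for all probes. This simulation does not cover the effects of centring or of dim probes on the counts. Alternatives covered scaling, centring, background correction (normexp, offset 50, on raw medians), loess, probe and window choices. Because the files pair probes with mm9 positions only, and the reference tables are GRCm38, gene lists, the qPCR control genes and sequences were not analysed here. Software was R 4.3.3 with limma 3.58.1, and Python 3.11.15 with pandas 2.3.3, numpy 2.4.6, matplotlib 3.10.9 and scipy 1.17.1.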

Additional observations from a re-analysis of the deposited data

How the results depend on the processing

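With 1 array per group, precision is limited by the number of arrays, and dim early-channel signal limits late windows. No paired analysis was possible because each group holds 1 array. Against 1292 later and 54 earlier windows, there were 205 and 8 once scaled to the same spread, 135 and 18 after quantile normalization, 129 and 145 with the linear trend on control and KO timing removed, 370 and 689 with arrays centred on the window median, and 81 and 30 with same spread and that centring together, an alternative chosen after seeing the data. There were 260 later windows with normexp, 816 and 172 with loess, 706 and 23 over probes well above background, 781 later with 10 or more probes, 565 and 3 at a threshold of 0.35, 1988 later without the rule on the SE, 568 and 83 over odd probes and 536 later over even probes. Earlier windows numbered 141 in windows of 100 kb and 8 in windows of 400 kb. The latest quintile, at -0.45, was at -0.12 with the same spread, -0.043 with quantile normalization, -0.25 centred on the window median, -0.015 with both, -0.18 with normexp and 0.028 with the trend removed. The earliest, at 0.18, was at -0.063 with the same spread, -0.0052 with the trend removed, 0.38 centred on the window median and 0.045 with both. The trend was fitted on the same mean of control and KO timing that ranks the quintiles. Small values with the trend removed therefore largely follow from the fit. The spread ratio of 1.30 was 1.18 with normexp. It was 1 with the same spread, with or without window centring, and 1.02 with quantile normalization. Both of these follow by construction, since quantile normalization gives the 2 arrays the same distribution of probe values. Otherwise the cause was not tested. The 28 named regions, some of which lie inside others and share their probes, kept their direction in 8 alternatives each. Their choice by size nearly fixed this, but many sizes moved: with normexp, chromosome 2 from 40200001 went from -0.68 to -0.10 and chromosome 5 from 84200001 to 85400000 from -0.95 to -0.16. Alternatives on gene lists were not run.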
